A study of Mus musculus with 11 samples.

Results

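The gliosis list is a set of genes that the study assembled from published reports of reactive astrocytes, and the deposited table of it holds 125 genes with 222 transcripts. The genes described here are the 104 members of that table that remain after a list of named genes, 21 of them in the table, is set aside. The rule goes by name and uses no measured value, although the names were listed with results of these data known. For a gene with several transcripts, the transcript with the largest total was taken, and the transcripts that depart most from it are described after the promoters. Primary enteric glial cell cultures of BL6 (C57BL/6) mice, grown from the muscle layer of the small intestine, were treated for 6 h with 100 µM ATP (6 libraries) or left without it (5 control libraries). The treatment field of the labels names ATP for all 11 libraries, so group membership here follows the library titles. The cultures were described by the study as rich in GFAP-positive cells and as also holding fibroblasts with smooth muscle actin. Nothing in the labels says which libraries came from the same mice. The codes in the titles fall into 3 series, of which 1 holds 3 ATP libraries only, 1 holds 2 control libraries only and 1 holds 3 of each, and without values per library these series and the treatment cannot be told apart. RNA was read with a 3′ mRNA-Seq kit, which covers the end of a polyadenylated transcript.

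Gliosis is the response of glial cells to injury or inflammation. In the brain, reactive astrocytes enlarge their intermediate filaments, secrete cytokines and matrix, and turn on complement and antigen presentation genes. Published mouse work divided the genes of this state into pan-reactive genes, A1 genes that follow inflammation and A2 genes that follow ischaemia. Enteric glia surround the neurons of the gut wall and share several markers with astrocytes. Extracellular ATP is released by damaged cells and acts on purinergic receptors of glia.

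The deposited values are the authors' group means per transcript in estimated counts per library, with no value for a single library. No replicate spread can therefore be given, no test was made, and every difference below is a ratio of means. The authors' own p-values in the tables were not used. The ATP mean was divided by the control mean and then by a depth factor of 1.16 (0.21 on the log2 scale), because the gliosis table is not scaled for library depth. The factor is the median over 49 transcripts that also stand in tables scaled for depth, where it ranged from 0.977 to 1.27. Printed means are as deposited, and printed folds are after this division. A gene was called higher or lower at 1.5-fold. The counting interval is an exact 95% interval from the summed reads of a group. It covers counting error only, and reads without molecular identifiers are not independent molecules.

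Among the 104 genes, 23 were at least 1.5-fold higher in ATP-treated cultures, 39 were at least 1.5-fold lower and 42 lay between these limits. In the table as a whole the shares were 29.6% higher and 36% lower, so the share of lower genes here, 37.5%, was near that of the table and the share of higher genes, 22.1%, was below it. The table as a whole holds Gfap among its higher genes, as listed, although its total matches the means only with the groups exchanged. Exchanged, its ratio would be 0.490 and the shares 28.8% higher and 36.8% lower. The study also measured Gfap by qPCR, which was not analysed here. The median ratio was 0.869, against 0.965 over all 125 genes. Without the depth factor the same genes divided evenly, with 29 higher and 29 lower. The lower calls lost in that setting were B2m, Bub1, Ccl7, H2-K1, Lamp2, Psmb8, Psmb9, S1pr3, Timp1 and Tnc, so the calls of these 10 genes rest on the scaling. The higher calls gained in it were Hspb1, Itgbl1, Klf5, Mcm2, Plk1 and Tgfbi. For 93 genes the counting interval left out equal levels, and of the 62 called genes it held them for Pole and Bub1.

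**Figure D1:**
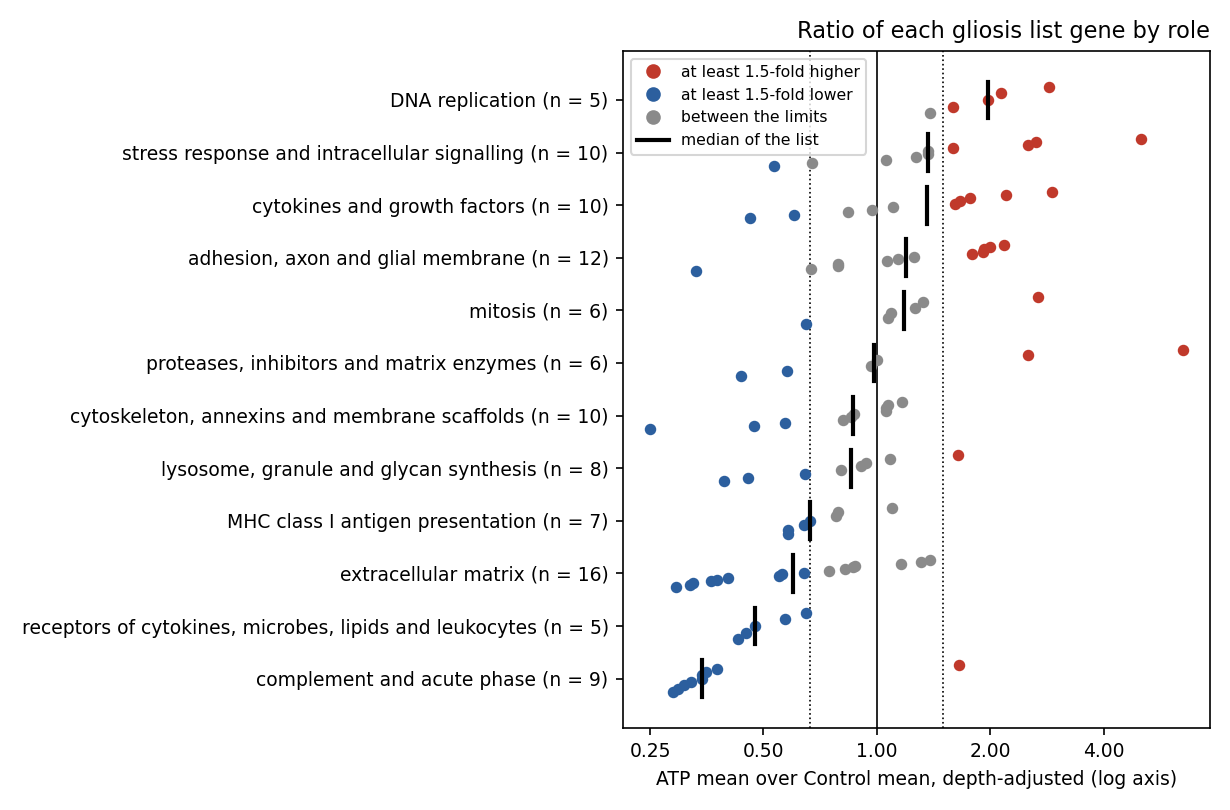
Depth-adjusted ratio of the ATP mean over the control mean (log axis) for each of the 104 genes in 12 lists by role, 1 point per gene, with dotted lines at 1.5-fold and a black bar at the median of each list. The complement and acute phase list lies lowest with a median of 0.344, and the DNA replication list lies highest with a median of 1.97.

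The lists differed in direction. They were drawn up with earlier results of these data known, so this is a description and carries no weight of its own. In the table as a whole, 29.6% of genes were higher and 36% lower. Complement and acute phase genes, a list of 5 receptors, extracellular matrix genes and the MHC class I pathway lay mostly on the lower side. DNA replication genes, cytokines, and stress and signalling genes lay mostly on the higher side. All 5 genes in the list of receptors for cytokines, microbes, lipids and leukocytes were called lower by their chosen transcripts. So were 8 of 9 complement and acute phase genes. The receptor gene Epha4 and the receptor subunit gene Neto2 stand in the adhesion list, with ratios of 0.790 and 2.18. None of 5 replication genes was called lower. None of 16 matrix genes, 7 MHC class I genes and 10 genes of cytoskeleton, annexins and membrane scaffolds was called higher. For the matrix genes this depends on the scaling, since Itgbl1 and Tgfbi were called higher without the depth factor.

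The complement and acute phase list had a median 2.91-fold lower in ATP-treated cultures, and 8 of its 9 genes lay between 2.66-fold and 3.47-fold lower. C3, the central protein of the complement cascade, had a mean of 4285 estimated counts in ATP-treated cultures, against 12501 in control cultures, and was 3.38-fold lower (counting interval 3.33 to 3.43). C1ra, a protease of the first complement complex, had 1230 in ATP-treated and 3447 in control cultures and was 3.25-fold lower. C4b, which joins the classical convertase, had 482 and 1210 in ATP-treated and control cultures and was 2.91-fold lower. Serping1, the inhibitor of proteases of the first complement complex, lay on the same side. It had 4742 in ATP-treated cultures, against 11921 in control cultures, and was 2.91-fold lower. C3, C1ra, C4b and Serping1 thus lay within a narrow range of folds. Fewer cells that make these transcripts and less of them per cell cannot be told apart in such bulk libraries.

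Steap4, a metalloreductase, had the largest fold of this list, with 53.7 estimated counts in ATP-treated and 161 in control cultures, 3.47-fold lower. Cp, the copper-binding ferroxidase ceruloplasmin, had 510 in ATP-treated and 1374 in control cultures and was 3.12-fold lower. Serpina3n, a protease inhibitor that marks reactive astrocytes in mouse brain, had 4310 in ATP-treated cultures, against 10552 in control cultures, and was 2.83-fold lower. Ptx3, a secreted pattern recognition protein, was 2.66-fold lower, with 444 in ATP-treated and 1020 in control cultures. The exception was Fgl2, a fibrinogen-like protein with prothrombinase activity in mice, which was 1.65-fold higher, with 246 in ATP-treated and 128 in control cultures. C4b and Serpina3n have close relatives in the mouse genome, and reads shared with them could change their values.

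The chosen transcripts of the 5 genes in the receptor list were all lower. Icam1, the adhesion molecule that leukocytes bind, had 189 estimated counts in ATP-treated and 381 in control cultures and was 2.34-fold lower. Il13ra1, a receptor chain for interleukins of the Th2 type, was 2.23-fold lower, Cd14, the lipopolysaccharide co-receptor, was 2.11-fold lower, and the chosen transcript of Il6ra, the binding chain for interleukin-6, was 1.75-fold lower. A second transcript, Il6ra-201, had a ratio of 1.201, and the sum over both, 0.688, was inside the limits. S1pr3, a receptor for sphingosine-1-phosphate, had 45.5 in ATP-treated and 60.6 in control cultures and was 1.54-fold lower, close to the limit.

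In the MHC class I pathway, heavy chains pair with B2m and are then loaded with peptides cut by the proteasome. B2m had 9246 estimated counts in ATP-treated and 12477 in control cultures and was 1.56-fold lower. Psmb8 and Psmb9, catalytic subunits of the immunoproteasome, were 1.72-fold and 1.51-fold lower, with 81.3 and 10.7 in ATP-treated cultures, against 121 and 13.9 in control cultures. H2-K1, a class I heavy chain, was also 1.72-fold lower, with 1010 in ATP-treated and 1498 in control cultures, whereas the heavy chain H2-D1 had a ratio of 0.788, inside the limits. These heavy chains are near-identical over long stretches, so their values are uncertain relative to each other. The loading factor Tapbp, with a ratio of 0.781, and its relative Tapbpl, with 1.10, were also inside the limits. Of the 7 genes, 5 lie on chromosome 17 in or beside the MHC region, from Tapbp at chr17:33915899-33929292 to H2-D1 at chr17:35262730-35267499 (GRCm38). The 4 lower calls of this list were all lost without the depth factor.

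Matrix genes contained the transcript with the largest total of all 104 genes. Dcn, which encodes the collagen-binding proteoglycan decorin, had 22518 estimated counts in ATP-treated and 51612 in control cultures and was 2.65-fold lower. Thbs2, the matricellular protein thrombospondin 2, had 621 in ATP-treated and 1832 in control cultures, 3.41-fold lower. Col12a1, a collagen that binds along fibrils, was 3.14-fold lower, with 180 in ATP-treated and 488 in control cultures. The neighbouring genes Col6a1 and Col6a2, whose chains form collagen VI, were 2.76-fold and 3.07-fold lower, with 1103 and 642 in ATP-treated cultures, against 2630 and 1704 in control cultures. The glycoproteins Fbln5, Nov, Ctgf and Tnc were 1.56-fold to 2.49-fold lower. The other 7 genes, among them those of the proteoglycan versican and of thrombospondin 1, had ratios from 0.748 to 1.39.

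Markers of fibroblasts lay on the same side as these genes. Of 8 fibroblast markers, 4 had a row in any deposited transcript table, and all 4 were lower. They are Dcn itself, Postn, which was 1.78-fold lower, Col3a1 and Col1a2. Col3a1 had a depth-scaled mean of 826 in ATP-treated and 2870 in control cultures and was 3.47-fold lower. Col1a2 had a row for 1 transcript only, Col1a2-003, at low depth-scaled means of 2.06 in ATP-treated and 8.18 in control cultures. Of 8 smooth muscle markers, Myl9 alone had a row and was lower. Of 8 enteric glia markers, Gfap alone had one, so the defining markers of the culture could not be checked by level. No endothelial marker of 5 was listed. The other tables, from which Col1a2, Col3a1 and Postn come, contain transcripts selected by the authors. A marker may thus be listed because it changed, and a marker without a row may be present at any level. The part of a change in cell composition in the lower matrix, complement and contractile genes was not tested.

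**Figure D2:**
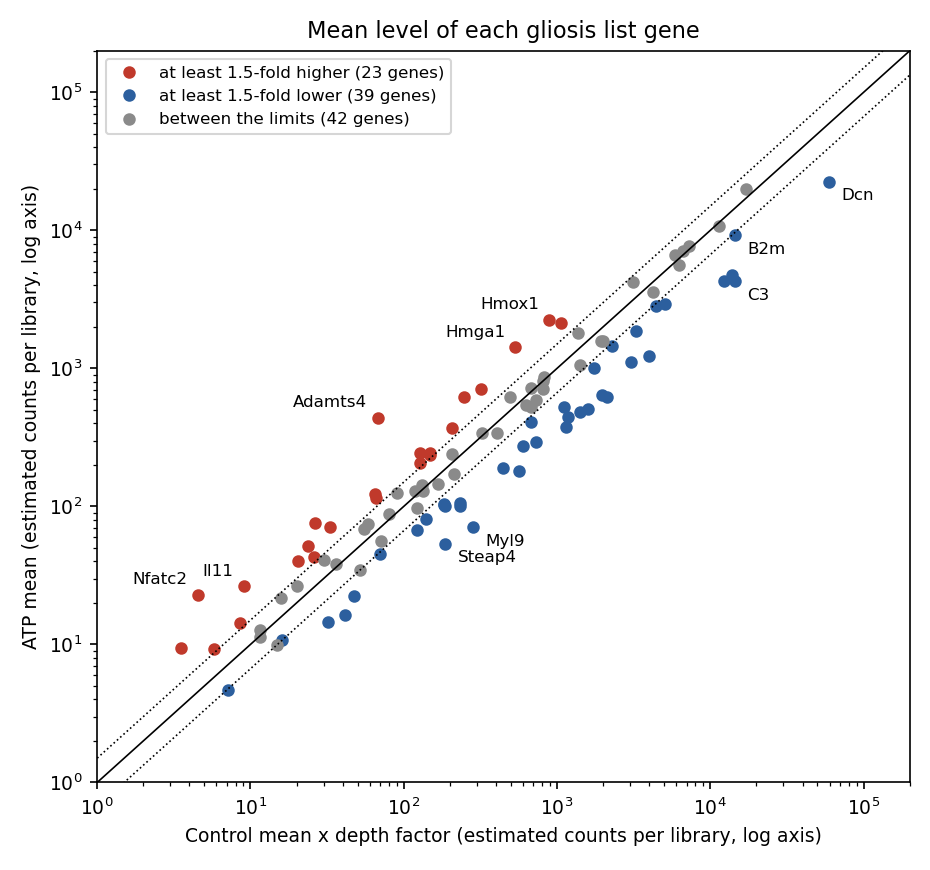
Mean of each of the 104 genes in ATP-treated cultures (vertical axis) against its mean in control cultures multiplied by the depth factor (horizontal axis), both in estimated counts per library on log axes, with a solid line at equal levels and dotted lines at 1.5-fold. Dcn lies at the upper end below the lower line, and Adamts4 lies farthest above the upper one.

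Proteases and their inhibitors were mixed. Adamts4, a secreted protease that cleaves versican and aggrecan, had the largest fold in either direction, with 440 estimated counts in ATP-treated cultures, against 58.4 in control cultures, and was 6.51-fold higher (counting interval 5.76 to 7.37). The gene lies at chr1:171250421-171260637 (GRCm38), on the forward strand. Cd109, a membrane-anchored protein of the α2-macroglobulin family that binds TGF-β, had 623 in ATP-treated and 213 in control cultures and was 2.53-fold higher. Adam12, a membrane metalloprotease, was 2.30-fold lower. Timp1, the tissue inhibitor of metalloproteases, had 2923 in ATP-treated and 4376 in control cultures and was 1.73-fold lower. The Timp1 call was lost without the depth factor. The elastase gene Cela1 had a ratio of 0.965 and the sulfatase gene Sulf2 a ratio of 1.003, although Sulf2-001, with a total close to that of the chosen transcript, was 1.78-fold lower.

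Secreted cytokines and growth factors were higher in 5 of 10 cases and lower in 2. These shares are 50% and 20%, against 29.6% and 36% in the table as a whole. Il11, Lif and Clcf1 belong to the interleukin-6 family that signals through gp130. Il11 had 26.3 estimated counts in ATP-treated and 7.80 in control cultures and was 2.92-fold higher (counting interval 2.04 to 4.25). Lif had 14.2 in ATP-treated and 7.38 in control cultures, a 1.66-fold higher mean from few reads (counting interval 1.11 to 2.50). Clcf1 had 116 in ATP-treated and 56.5 in control cultures and was 1.77-fold higher. All 3 family members on the list were thus higher. Spp1, which encodes osteopontin, had 707 in ATP-treated and 277 in control cultures, 2.21-fold higher. Cxcl1, a chemokine for neutrophils, had 207 and 111 in ATP-treated and control cultures, 1.61-fold higher. The Cxcl1 call was lost with the highest depth factor of any shared transcript.

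The monocyte chemokines behaved otherwise. Ccl7 had 406 estimated counts in ATP-treated and 584 in control cultures and was 1.66-fold lower. Its neighbour on chromosome 11, Ccl2, had a ratio of 0.836, inside the limits. Wnt5a, a ligand of the non-canonical Wnt pathway, had 275 in ATP-treated and 516 in control cultures and was 2.17-fold lower. Hgf and Tgfb1 had ratios of 0.971 and 1.10, and for both the counting interval held equal levels.

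By chosen transcripts, stress and signalling genes held the second largest fold among the higher genes. Nfatc2 encodes a calcium-regulated transcription factor that calcineurin activates. Its chosen transcript had 22.9 estimated counts in ATP-treated and 3.94 in control cultures and was 5.02-fold higher. The counting interval was wide, 3.07 to 8.33. Nfatc2-002 was 2.14-fold lower, and the sum over both transcripts had a ratio of 1.85. Hmga1, a chromatin protein of dividing cells, had 1420 in ATP-treated and 462 in control cultures and was 2.65-fold higher. Hmox1, the haem-degrading enzyme of the oxidative stress response, was 2.52-fold higher, with 2244 in ATP-treated and 770 in control cultures. The chosen transcript of Sphk1, the kinase that makes sphingosine-1-phosphate, was 1.59-fold higher, with 234 in ATP-treated and 127 in control cultures, but its other transcripts were lower. Fkbp5, a co-chaperone induced by glucocorticoids, was 1.87-fold lower. The heat shock gene Hspb1 and the growth arrest gene Gadd45b had ratios of 1.36 and 1.27, and the other 3 genes also lay inside the limits.

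DNA replication genes were all above equal levels. Fen1, the flap endonuclease of lagging strand synthesis, had 76.0 estimated counts in ATP-treated and 22.9 in control cultures and was 2.87-fold higher. Rfc3, a subunit of the clamp loader, had 71.2 in ATP-treated and 28.7 in control cultures, 2.14-fold higher, and Prim1, the catalytic primase subunit, had 40.2 in ATP-treated and 17.6 in control cultures, 1.97-fold higher. Pole, a replicative polymerase, had a total of 80.2 over all libraries and a ratio of 1.59 whose counting interval, 0.970 to 2.65, held equal levels. Mcm2, of the replicative helicase, had a ratio of 1.38. The mitotic genes were less uniform. Ccnb1, the mitotic cyclin B1, was 2.67-fold higher on a total of 71.6 only, and the checkpoint kinase gene Bub1 was 1.54-fold lower on a total of 59.0. Plk1, Ccna2, Ccnb2 and Mad2l1 had ratios from 1.07 to 1.32.

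Genes of adhesion, axon growth and glial membranes included 5 higher ones of 12, or 41.7%, against 29.6% of the table as a whole. Neto2, an auxiliary subunit of kainate receptors, had 51.5 estimated counts in ATP-treated and 20.4 in control cultures and was 2.18-fold higher. Gja1, which encodes the gap junction protein connexin 43 of glial networks, had 244 in ATP-treated and 110 in control cultures and was 1.92-fold higher. Cntn1, a neural adhesion molecule, was likewise 1.92-fold higher, Dpysl3, a cytosolic growth cone protein, was 1.997-fold higher, and Nav2, a protein of neurite outgrowth, was 1.79-fold higher. The calls of Dpysl3 and Nav2 did not hold in the sum over their transcripts. Of 8 markers of enteric neurons, 2 had a row in a depth-scaled table and both were higher, Uchl1 at 1.88-fold and Ret at 1.63-fold. Their part in the higher axon and adhesion genes was not tested. Itgb5, the integrin β5 subunit, was the single lower gene of this list, with 377 in ATP-treated and 981 in control cultures, 3.02-fold lower. The glutamate transporter gene Slc1a3 had a ratio of 0.669, just inside the limits. The growth cone gene Gap43 had a ratio of 1.14.

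The list of cytoskeleton, annexins and membrane scaffolds contained the largest fold among the lower genes. Myl9, the regulatory light chain of smooth muscle and non-muscle myosin, had 70.5 estimated counts in ATP-treated and 244 in control cultures and was 4.004-fold lower (counting interval 3.58 to 4.48). Anxa3, a calcium-dependent phospholipid-binding protein, was 2.12-fold lower, and Emp1, a membrane protein, had 1855 in ATP-treated and 2808 in control cultures and was 1.75-fold lower. The intermediate filament gene Vim had 19852 in ATP-treated and 14679 in control cultures, a ratio of 1.17, while Vim-006 had 11855 in ATP-treated and 5947 in control cultures and was 1.72-fold higher. With S100a10, Anxa2, Lgals1 and others, Vim belongs to 7 genes of this list inside the limits, from 0.813 to 1.17. Among genes of lysosomes, granules and glycan synthesis, Srgn, the core protein of granule proteoglycans, was 2.55-fold lower, the glycosyltransferase gene Galnt12 was 2.20-fold lower and Lamp2, a lysosomal membrane protein, was 1.55-fold lower, with a sum over its transcripts of 0.682, inside the limits. Cd68, a lysosomal protein of phagocytes, had 43.0 in ATP-treated and 22.6 in control cultures and was 1.65-fold higher. Cd68 and Cd14 were the listed macrophage markers out of 8, and they lay in opposite directions.

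**Figure D3:**
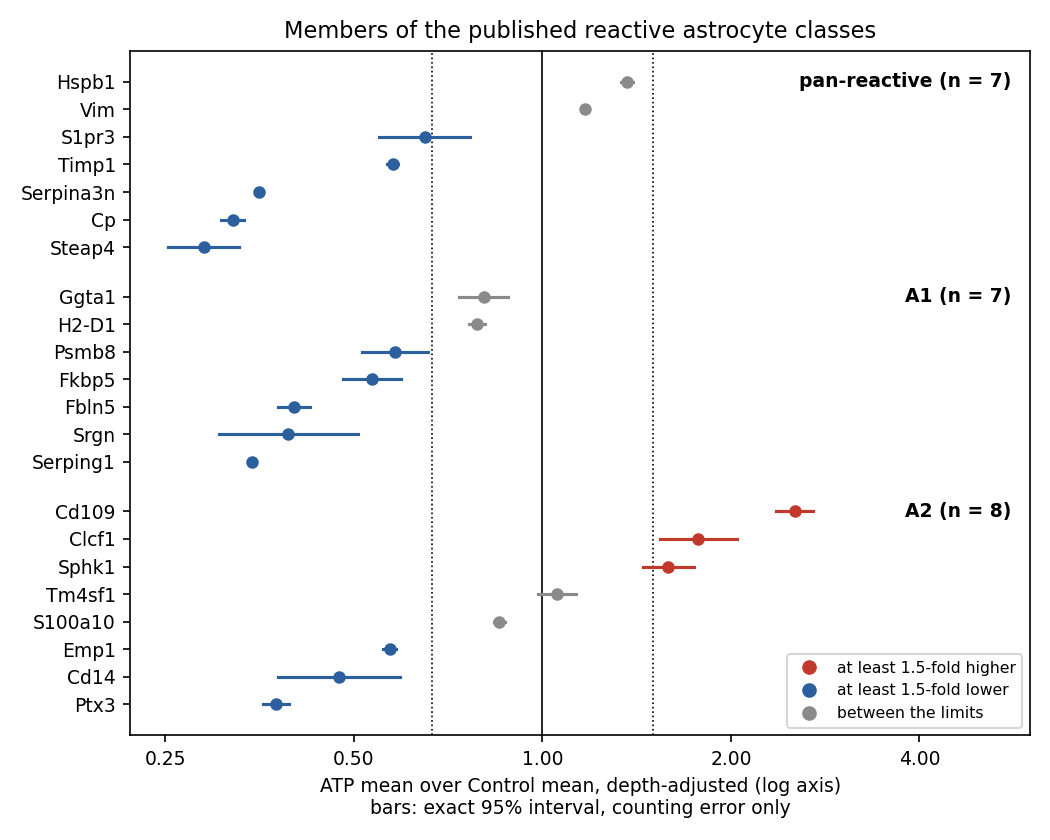
Depth-adjusted ratio of the ATP mean over the control mean (log axis) for the 22 genes of the published reactive astrocyte classes, with exact 95% intervals for counting error as bars and dotted lines at 1.5-fold. All 7 A1 genes lie below 1, whereas the 8 A2 genes spread from 0.376 to 2.53.

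Of the 104 genes, 22 belong to the published astrocyte classes, and the classes differed in how their members lay. Among 7 pan-reactive genes, 5 were lower, namely Steap4, Cp, Serpina3n, Timp1 and S1pr3, while Vim and Hspb1 were inside the limits at 1.17 and 1.36. Among 7 A1 genes, 5 were lower, namely Serping1, Srgn, Fbln5, Fkbp5 and Psmb8, while H2-D1 and Ggta1 were inside the limits at 0.788 and 0.806. The 8 A2 genes were divided, with Cd109, Clcf1 and the chosen transcript of Sphk1 higher, Ptx3, Cd14 and Emp1 lower, and S100a10 and Tm4sf1 inside the limits at 0.853 and 1.06. The class medians were 0.577 for pan-reactive genes, 0.535 for A1 genes and 0.954 for A2 genes. In the table as a whole, 29.6% of genes were higher and 36% lower. The A2 shares, 37.5% in each direction, were near these. In the pan-reactive and A1 classes 71.4% of genes were lower and none was higher. Without the depth factor, Timp1, S1pr3 and Psmb8 lost their lower calls, and Hspb1 was called higher with a ratio of 1.58. The difference between the classes was not tested, since a test over genes would treat them as replicates. These are the class members left after the 21 named genes were set aside, not the whole classes.

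Of the 21 genes set aside, 14 were higher and 6 were lower, with a median ratio of 2.15, or 13 and 7 with the means of Gfap exchanged. Those genes had been picked with results of these data in view, so this contrast with the 104 remaining genes describes the choice and carries no weight of its own.

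Sequence upstream of the start site was compared for genes called in the same direction. RefSeq promoters (GRCm38.p6, 250 bases before to 50 after a start) were matched for 74 of the 104 genes, and 5 short motifs were searched on both strands. Calls are those of the chosen transcripts, so Sphk1 counts as higher for each motif although the ratio of its summed means was 0.786. The AP-1 motif TGAGTCA, bound by Fos and Jun proteins, was present for 6 of 17 higher genes, 2 of 27 lower genes and 2 of 30 others, against 5.95% of 27025 genes with a promoter. The windows of the higher genes are shown because they include the cytokines Il11 and Lif and the connexin Gja1, and those of the lower genes Emp1 and Col6a1 follow for comparison. Each has 10 bases on either side, reads 5′ to 3′ on the strand of the gene, and has the motif or its reverse complement in capitals.
Gja1, chr10:56377271-56377297, forward strand: tccttccagtTGAGTCAgtggcttgaa
Fgl2, chr5:21372647-21372673, forward strand: tcagaacgccTGAGTCAggcggcggtg
Il11, chr7:4778223-4778249, reverse strand: ggagggagggTGAGTCAggatgtgtca
Lif, chr11:4257330-4257356, forward strand: cagtcagctgTGACTCAggccatagtg
Cd68, chr11:69666178-69666204, reverse strand: ctgaggtgtcTGAGTCAggtttggggt
Cd68, chr11:69666303-69666329, reverse strand: aagttccgtgTGAGTCAgctgcctcat
Sphk1, chr11:116531777-116531803, forward strand: agcgtgtcgcTGAGTCAccttctcgga
Emp1, chr6:135362776-135362802, forward strand: tctgtgtgtcTGAGTCAgagggagcta
Col6a1, chr10:76726118-76726144, reverse strand: gctgatgctgTGACTCActcagctttg

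The motif began 16 to 24 bases before the start in Fgl2, Gja1 and the nearer site of Cd68, and 98 and 228 bases before it in Il11 and Lif. Such a match is a description of the letters in the window and not a bound site. The antioxidant response element TGACNNNGC, bound by Nrf2, was present for 6 of 17 higher genes, 4 of 27 lower genes and 5 of 30 others, against 14.0% of all genes, and in Sphk1 it overlaps the AP-1 motif. The interferon-stimulated response element, GAAA, any 2 bases and GAAA, was present for 8 of the 74 genes, against 3.99% of all genes. It was found for 1 of 17 higher genes, 3 of 27 lower genes and 4 of 30 others, and for 1 of 6 MHC class I genes. B2m carries it at chr2:122147538-122147567, shown because B2m is the common subunit of the MHC class I molecules.
B2m, forward strand: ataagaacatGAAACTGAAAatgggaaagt
The cell cycle homology region TTTGAA was found for 14 of the 74 genes, 18.9%, against 20.2% of all genes. It was present for 2 of 4 replication genes, 2 of 5 mitotic genes and 3 of 6 cytokine genes. The cyclic AMP response element TGACGTCA was in none of the 74 promoters, against 2.03% of all genes.

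The chosen transcripts were compared with the others of the same gene. Of the 104 genes, 57 had 1 listed transcript and 47 had more, which gave 83 further transcripts. Of these, 44 had the call of the chosen transcript and 11 had the opposite one. Summing the transcripts took 5 genes inside the limits, namely Dpysl3, Nav2 and Sphk1 among the higher and Il6ra and Lamp2 among the lower. Among genes inside the limits, Vim-004 was 3.55-fold higher, Gcnt2-202 was 3.20-fold higher and Vcan-007 was 2.07-fold lower. Cd109-002 had a ratio of 0.960, against 2.53 for the chosen transcript, on a total of 98.0. The transcripts of C3, Cp, Dcn, Col6a2 and Tnc lay close together, and the 5 transcripts of Emp1 were all lower. Dpysl3, Epha4, Nav2, Nfatc2, Sphk1 and Wnt5a had transcripts past 1.5-fold in both directions. For Sphk1 this decided the direction of the gene. Its chosen transcript was higher, but Sphk1-002 had 56.9 estimated counts in ATP-treated and 161 in control cultures, 3.28-fold lower, and the ratio of the summed means was 0.786. For Wnt5a the lower-count Wnt5a-002 had 40.7 in ATP-treated and 7.98 in control cultures, 4.40-fold higher, while the sum over both transcripts was 0.521. Nfatc2-002 was 2.14-fold lower, with 4.87 in ATP-treated and 9.01 in control cultures, and the sum over both transcripts gave Nfatc2 a ratio of 1.85. Summed ratios were 1.29 for Nav2, over 9 transcripts, and 1.25 for Dpysl3, both inside the limits. Since the kit reads the 3′ end, transcripts that share it are hard to tell apart.

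**Figure D4:**
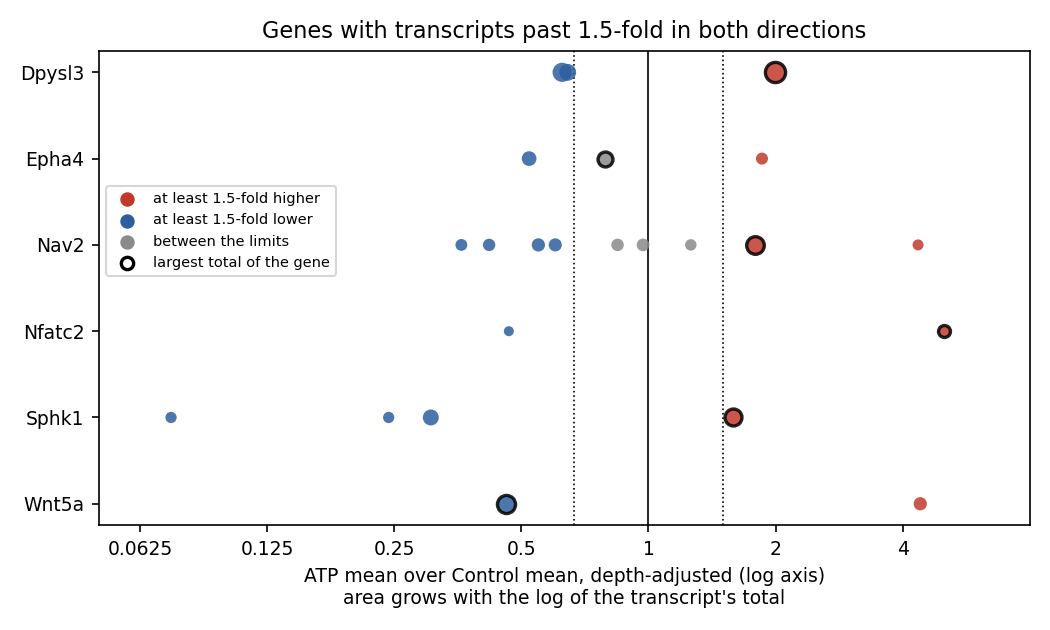
Depth-adjusted ratio of the ATP mean over the control mean (log axis) for each listed transcript of the 6 genes with calls in both directions, 1 point per transcript, with the largest total of the gene outlined in black and dotted lines at 1.5-fold. In Sphk1 the outlined transcript lies at 1.59 and the other 3 lie at 0.305 or lower.

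A second set of values was available for 13 of the genes, whose chosen transcripts also stand in the depth-scaled tables. All 13 had the same call there. Myl9 was 3.67-fold lower, Steap4 3.23-fold lower and Itgb5 2.80-fold lower in those tables, and Neto2 was 2.09-fold higher. These values come from the same libraries, and their transcripts are among those that set the depth factor, so they are no independent check of the scaling or of the differences.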

How the data were processed

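3′ mRNA-Seq libraries (QuantSeq, single-end) of 6 ATP-treated and 5 control cultures were processed by the authors in Partek. Aligner, build and annotation were not given in the sources used here. In the deposited gliosis table the group means and totals are estimated counts without depth scaling, and in 4 further deposited tables they are a signal that the authors scaled for depth, both read from the values. Columns with the authors' p-values, adjusted p-values, ratios and fold changes, and a table of GO enrichment, were not used. Library depths are unknown here.

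Folds and the depth factor (median over 49 transcripts, SD 0.0574) were computed with Python 3.11.15, pandas 2.3.3 and SciPy 1.17.1. Clopper-Pearson intervals were computed with them from summed means rounded to whole counts. The same code was run on simulated counts with the same depth factor for all transcripts and no added spread between libraries. That run checks the arithmetic and cannot show whether the scaling or the intervals suit these data. Positions are from GENCODE M21 (GRCm38). The members, the 12 role lists and the 3 classes were chosen with earlier results of these data known. The genes named were up to 4 with the largest folds past 1.5 in each direction per list, at a total of at least 100, and all class members. Genes outside this rule, including those inside the limits, were chosen after their values were seen. Alternatives were other depth factors, a pseudocount of 1, summed transcripts, totals of at least 100 or 1000, a fold of 2 and the counting interval. The exchange of the Gfap means was added after seeing the data.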

Additional observations from a re-analysis of the deposited data

How the results depend on the processing

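Without the depth factor the median ratio of the 104 genes was 1.01, with the lowest factor of any shared transcript it was 1.03, and with the highest it was 0.794. Over genes with a total of at least 1000 it was 0.809, and 12 genes were higher. At a fold of 2 there were 11 higher and 24 lower genes. Sphk1 turned to a ratio of 0.786 when its transcripts were summed. Under the other alternatives run, the counts lay between 20 and 30 for higher genes and between 27 and 41 for lower genes. No paired analysis was possible because the tables give no value per library, and for the same reason no replicate could be left out. Depth limits Pole, Bub1 and Ccnb1 most, with totals under 100.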

Other observations

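The direction of the 104 genes differed with their total over all libraries. Of 29 genes with a total of at least 10000 estimated counts, 3 were higher and 14 were lower, with a median ratio of 0.748. Of 27 genes with a total of 100 to 1000, 9 were higher and 6 were lower, with a median of 1.25. This is a description over genes, which are not replicates, and its relation to the scaling or to the choice of genes was not tested.

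Ggta1, an A1 gene, had a chosen transcript inside the limits, but Ggta1-003 was 12.8-fold higher in ATP-treated cultures. This fold rests on few reads, with 29.2 estimated counts in ATP-treated and 1.96 in control cultures. The sum over the transcripts of Ggta1 had a ratio of 0.960, inside the limits.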
